A study of Rattus norvegicus with 23 samples.

Results

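The genes described here are 150 well-expressed liver genes whose level in rats of air-breathing dams was 2 to below 4 times as high in sons as in daughters. They were chosen by their measured values. CPM, a gene's count divided by the total of its library and multiplied by 1000000, was averaged over the air daughters and over the air sons. Of the 18056 genes of the table, 1485 had a sons to daughters ratio within these limits and a mean of the 2 groups below 1000 CPM, and the 150 with the highest mean were taken. Poly(A) RNA was sequenced from the livers of 23 male and female offspring at about postnatal day 48, an adolescent age. On gestation days 5 and 6, around implantation, the dams breathed ozone at 0.8 ppm or filtered air without it (0 ppm). The groups were air daughters (n = 6), air sons (n = 6), ozone daughters (n = 6) and ozone sons (n = 5), where air and ozone always name the exposure of the dam. The labels mention that some rats were also exposed in chambers, not which ones, and every library name gives 0 ppm. Neither the strain nor the dam of each offspring is given in the labels, so littermates cannot be recognised, and p-values measure the spread between these animals as if they were independent.

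As background, the rodent liver is one of the most sexually dimorphic organs outside the reproductive tract. After puberty male rats release growth hormone in pulses with low troughs, and females release it more continuously. Hepatocytes read that pattern through the growth hormone receptor, the kinase JAK2 and the transcription factor STAT5b, and cytochromes P450, sulfotransferases, transporters and secreted carrier proteins are well known to differ between the sexes as a result. None of these was identified among the members, because the table gives Ensembl identifiers alone and 0 of the 18056 could be paired with a symbol through the RefSeq gene table at hand. Members are therefore given by identifier or by their rank of level, and neither their functions nor liver cell type markers could be checked.

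Total counts lay between 8000498 and 15594817 per library, and all 150 members were among the 12792 genes that passed the filter on low counts. The library names come in 2 styles. Style 1 held 5 air daughters, 3 air sons, 1 ozone daughter and 4 ozone sons, and style 2 held 1, 3, 5 and 1. A term for the style was therefore part of the fit, except in the alternatives named below. For this term itself 0 of the 150 members passed the threshold by edgeR, as 3 of all 12792 genes did, and 5 members and 687 of all genes had an unadjusted p below 0.05. No other tool was run for the term.

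The limits of the rule cut through a continuous range. The member with the lowest level had a mean of 23.99 CPM and the next gene outside 23.58 CPM. The most abundant member had 984.5 CPM, and 6 genes within the ratio limits lay above the upper limit, the lowest of them at 1189 CPM. Ratios ran from 2.00 to 3.96, with a median of 2.35 (quartiles 2.12 and 2.70). At the same levels the nearest ratios outside were 1.99 and 4.37, and 44 genes had a ratio of 4 or more. The median member had a mean of 50.7 CPM (quartiles 32.2 and 104.7). Since these values chose the members, they are a description. In the fit 148 of the 150 passed the threshold between air sons and air daughters, where 24.6% of all genes tested were called higher in sons, and nothing is read from that count.

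Together the members took 0.945% ± 0.187 of the counts in air daughters and 2.36% ± 0.275 in air sons (SD, n = 6 and 6). Ozone daughters lay at 1.34% ± 0.338 (n = 6) and ozone sons at 1.69% ± 0.251 (n = 5). To place each liver, the mean log2(CPM + 0.5) over the 150 members was scaled so that air daughters averaged 0 and air sons 1. Air daughters then ranged from −0.22 to 0.29 and air sons from 0.81 to 1.18, without overlap, which the choice of the members fixes. Ozone sons stood at 0.40, 0.53, 0.34, 0.84 and 0.43 for replicates 1 to 5, a mean of 0.51 ± 0.20 (SD). Only replicate 4 reached the range of the air sons, and all 5 lay above every air daughter. Ozone daughters stood at 0.22, 0.30, 0.42, 0.76, 0.51 and −0.10 for replicates 1 to 6, a mean of 0.35 ± 0.29 (SD). Replicates 1 and 6 lay within the range of the air daughters, the other 4 above it, and none reached the air sons. The 2 ozone groups overlapped: ozone daughter 4 stood higher than 4 of the 5 ozone sons.

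**Figure D1:**
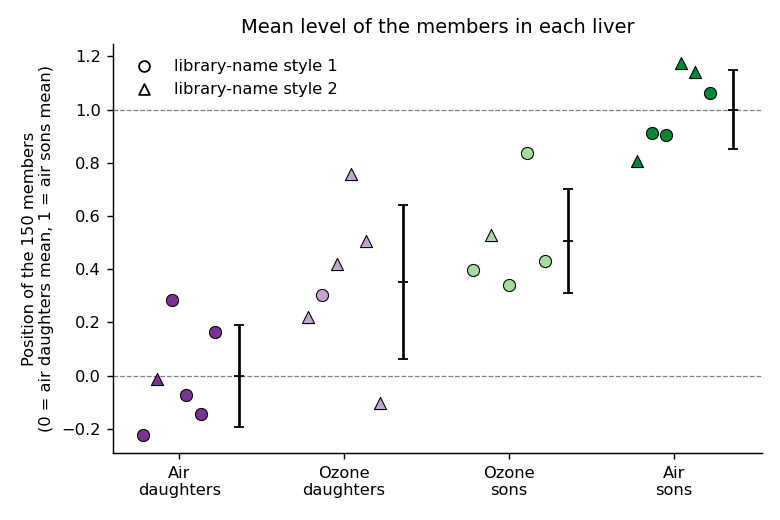
Position of each of the 23 livers on the mean log2 level of the 150 members (y axis, no unit), where 0 is the mean of the air daughters and 1 that of the air sons. Points are animals, circles and triangles the 2 styles of library name, and bars the mean ± SD of a group; ozone sons (0.34 to 0.84) and ozone daughters (−0.10 to 0.76) overlap between the air groups.

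Members were also counted one by one. A member was taken as nearer the air sons when its log2 level lay above the midpoint of the 2 air means. Among ozone sons, 46, 66, 44, 139 and 45 of the 150 members lay on the air sons' side in replicates 1 to 5. Replicate 4 lay within the 136 to 150 of the air sons, and the other 4 had most members on the daughters' side. The scale and the midpoint rest on the air values that chose the members. Where ozone livers lie between the air groups is therefore a description. Among ozone daughters the counts were 24, 28, 58, 119, 90 and 2 in replicates 1 to 6, against 1 to 23 in air daughters. Replicate 4 and, less far, replicate 5 had most members on the sons' side, while replicate 6 had almost none. Air daughter 3, with the highest count of its group (23), was also the library with the lowest total (8000498 counts); the part of depth in its position was not tested. No single ozone animal stood beyond the outer edge of both air groups: the lowest ozone position was −0.10 and the highest 0.84.

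**Figure D2:**
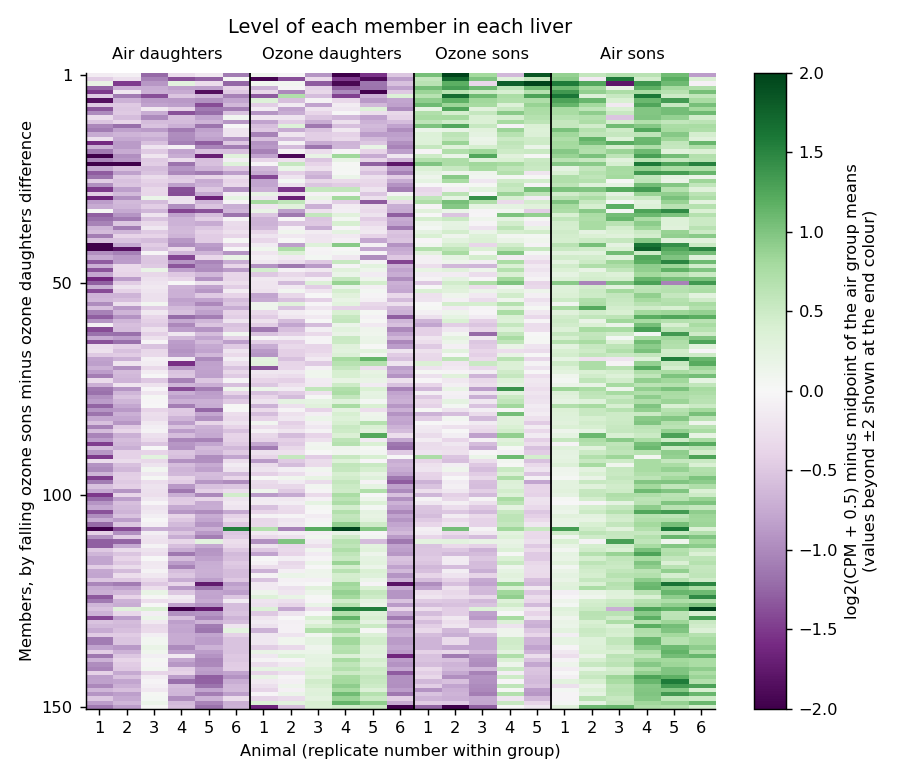
Heat map of the 150 members (rows, ordered by falling log2 difference of ozone sons minus ozone daughters) in 23 livers (columns, by group and replicate). Colour is log2(CPM + 0.5) minus the midpoint of the 2 air means, green on the sons' side and purple on the daughters' side. Upper rows are greener in ozone sons than in ozone daughters and lower rows are not, which the order of the rows fixes. In the lower rows the colour varies between ozone animals of both sexes.

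The rule used no ozone animal, so the comparison of ozone sons with ozone daughters measures the sex difference of the members in animals that did not choose them; the fit took its style term and its estimate of spread from the air animals as well. There 24 of the 150 members (16%) were higher in ozone sons, and 126 did not pass the threshold (edgeR's quasi-likelihood test with a Benjamini-Hochberg adjusted p under 0.05, n = 5 and 6). Over all genes tested, 3.15% were called higher in ozone sons, and 4.07% of the 3978 genes tested at the same levels. None of the members was called higher in ozone daughters, against 2.92% of all genes. In that direction 3 had an unadjusted p below 0.05, and DESeq2 and limma voom also called 0. Without the style term 1 member was called higher in ozone daughters, and likewise 1 without ozone son 4. The median log2 difference of sons minus daughters over the members was 0.08 (quartiles −0.18 and 0.49), and over all genes tested it was −0.02. That median turned to −0.03 without ozone son 4 or without ozone daughter 6, and was 0.23 without ozone daughter 4. The sign was positive in 88 members and negative in 62, and 18 members were at least 2-fold higher in ozone sons. In 18 members every ozone son lay above every ozone daughter, as in 2.49% of all genes, and in 0 members did every ozone daughter lie above every ozone son, as in 1.74%. With the 2 ozone groups fitted alone, 15 members passed, all among the 24. The count of 24 fell to 14 without ozone son 2, and the 14 were among the 24. This animal was the only ozone son of library-name style 2 and had the highest total (14098393 counts). When each library of the 2 groups was left out in turn, the counts ran from 14 to 27. The same 14 members passed in every one of these fits. The share of all genes called in these settings is not given here. Among ozone offspring the style and the sex were nearly confounded. With style 1 libraries alone (4 ozone sons, 1 ozone daughter) 1 member passed, and with style 2 alone (1 and 5) 15 did.

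**Figure D3:**
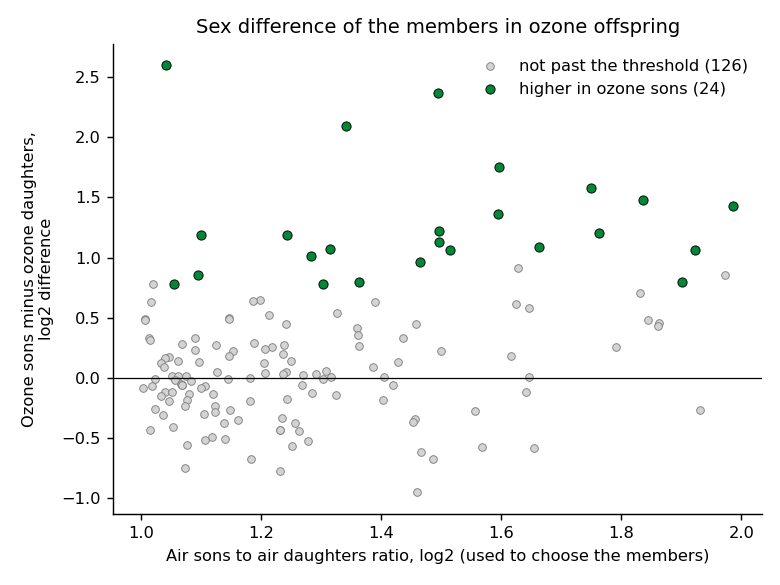
Each point is 1 of the 150 members, with the log2 ratio of air sons to air daughters that chose it on the x axis and the log2 difference of ozone sons minus ozone daughters on the y axis. The 24 members called higher in ozone sons (green) lie at 0.78 or above, and the 126 others spread around 0, from −0.95 to 0.91.

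In bulk tissue fewer cells of a type and less RNA per cell cannot be told apart, which holds for every level here. The 24 members called higher in ozone sons were picked by that difference, so their levels are a description. On the scale from air daughters (0) to air sons (1), the median of these members was 0.90 in ozone sons (0.60 to 1.75) and 0.13 in ozone daughters (−0.39 to 0.31). Ozone sons stood at 0.75 or above in 21 of the 24, and ozone daughters below 0.25 in 20. Their log2 differences ran from 0.78 to 2.598, with a median of 1.16. In 16 of the 24 the 2 ozone groups did not overlap. They were spread over the range of levels, with 10 among the 50 most abundant members.

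ENSRNOG00000000969 had the largest difference of the 24. Its ozone sons had 366.6, 1654, 312.1, 115.3 and 648.4 CPM in replicates 1 to 5. The 6 ozone daughters lay between 34.2 and 194.4 CPM, with a median of 110.6 CPM. Ozone son 4 fell within the range of the daughters and ozone son 2 stood far above all other livers. The log2 difference was 2.598 with an SE of 0.48 (edgeR, adjusted p = 0.00113). Without ozone son 2 it was 1.75 and did not pass (edgeR, adjusted p = 0.0662). In air livers this gene ranged from 76.0 to 168.5 CPM in daughters and from 98.3 to 373.8 CPM in sons, so its air groups overlapped as well. Unlike most members, it did not pass between air sons and air daughters (log2 difference 0.82, edgeR, adjusted p = 0.144). ENSRNOG00000020775 came next and its ozone groups were apart. The 5 ozone sons had 58.6, 130.6, 78.7, 48.9 and 59.2 CPM. The ozone daughters had 9.87 to 31.7 CPM, with a median of 14.2 CPM. Every ozone son was above every ozone daughter, with a log2 difference of 2.37 and an SE of 0.37 (edgeR, adjusted p = 0.000147). The air sons had 35.5 to 118.4 CPM and the air daughters 14.8 to 40.3 CPM. Within the style 1 libraries alone, with 1 ozone daughter, neither gene passed: the log2 difference was 1.02 for ENSRNOG00000000969 and 2.04 for ENSRNOG00000020775 (edgeR, adjusted p = 0.774 and 0.325). Within style 2 alone, with 1 ozone son, it was 4.09 and 2.94 (edgeR, adjusted p = 0.00137 and 0.00846). Both genes had fractional counts, which can arise where reads are shared between genes or copies, so their levels are uncertain.

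Both kinds of member were found among the most abundant. Of the 10 most abundant members, those of ranks 3, 6 and 10 passed between ozone sons and ozone daughters; they are singled out after their values were seen. The member of rank 3 had 1255 CPM in ozone sons and 550.0 CPM in ozone daughters, with air means of 1400 and 353.4 CPM, and a log2 difference in ozone offspring of 1.43. The member of rank 6 had 591.1 and 271.8 CPM, with air means of 826.2 and 218.0 CPM. The member of rank 10 had 448.1 and 215.6 CPM, with air means of 521.9 and 209.9 CPM. In all 3 the 2 ozone groups did not overlap. The most abundant member, of rank 1, was different. It had means of 595.4 CPM in air daughters and 1374 CPM in air sons, but 911.6 CPM in ozone daughters and 901.4 CPM in ozone sons, which do not differ beyond their spread (log2 difference 0.04, edgeR, adjusted p = 0.980). The member of rank 2 had 705.6 CPM in ozone daughters and 685.9 CPM in ozone sons, both near the 611.3 CPM of air daughters rather than the 1243 CPM of air sons.

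For the 126 members that did not pass, the median log2 difference between ozone sons and ozone daughters was 0.01, with 64 above 0 and 62 below. These members were set apart by that same difference, which shapes its median, signs and intervals, so the values are a description. A missed threshold does not show that the sexes were alike, so the 95% intervals of the differences are given. In 110 of the 126 the upper bound lay below a log2 difference of 1, that is below 2-fold, and in 87 the whole interval lay between −1 and 1. On the scale between the air means these members had a median of 0.38 in ozone sons and 0.40 in ozone daughters. The 2 members with the smallest p in the daughters' direction were ENSRNOG00000020093 and ENSRNOG00000039783, neither past the threshold. ENSRNOG00000020093 had 14.8, 14.6, 13.98, 20.5 and 15.2 CPM in ozone sons and 17.4 to 43.8 CPM in ozone daughters, with a median of 23.9 CPM. Ozone son 4 overlapped the daughters and the other 4 lay below all of them, with a log2 difference of −0.75 and an SE of 0.27 (edgeR, adjusted p = 0.123; 0.0404 without the style term). ENSRNOG00000039783 had 19.02, 22.4, 18.04, 37.8 and 20.1 CPM in ozone sons and 19.99 to 63.4 CPM in ozone daughters, with a median of 40.0 CPM. The log2 difference was −0.67 with an SE of 0.28 (edgeR, adjusted p = 0.197; 0.0468 without ozone son 4). Both genes had fractional counts. In both the air sons were higher than the air daughters, with means of 35.4 against 16.8 CPM and 56.1 against 24.7 CPM.

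Members with a wider ratio in air passed more often in ozone offspring. Of the 99 members with an air ratio of 2 to below 2.5, 8 were called higher in ozone sons, with a median log2 difference of 0.01. Of the 28 with a ratio of 2.5 to below 3, 7 were called, with a median of 0.24. Of the 23 with a ratio of 3 to below 4, 9 were called, with a median of 0.71. These are 8.08%, 25% and 39.1% of the bins, beside 3.15% of all genes tested and 4.07% of those at the same levels. The ratio belongs to the choice of the members, so these counts are a description without a test. By level, 10 of the 50 most abundant members were called (20%), 6 of the next 50 (12%) and 8 of the last 50 (16%). Their median log2 differences were 0.28, 0.00 and 0.00.

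Within a group, animals high for 1 member tended to be high for the others. The rule used means over the air animals, so only the ozone groups are free of it. After the group means were removed, the median correlation between pairs of members was 0.51 over the 23 livers, and 88.0% of the pairs had a correlation above 0. Over the 3978 genes tested at the same levels, the median was 0.03 and 53.3% of pairs were above 0. The trait was not particular to the members: in their mirror image, the 150 genes chosen by the same rule with daughters and sons exchanged, the median was 0.53 and 87.1% of pairs were above 0. The pairs share libraries and depth, and these values are a description. Among the members the median was 0.51 in air daughters, 0.39 in air sons, 0.69 in ozone daughters and 0.59 in ozone sons. A single axis held 51.5% of the within-group variance of the members and 30.2% of that of the genes at the same levels. The members also varied more between animals of a group than genes at the same levels, as did the mirror set. Their median SD of log2 level was 0.35 in air daughters, 0.31 in air sons, 0.49 in ozone daughters and 0.36 in ozone sons, against 0.21, 0.19, 0.26 and 0.22 for the genes at the same levels and 0.33, 0.26, 0.45 and 0.34 for the mirror set.

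Members differed in how closely they followed the others. The correlation of each member with the mean of the other 149 was computed in the 12 air livers after the group means were removed, so that no ozone animal entered it. The 50 members with the lowest values (−0.52 to 0.57) had a median log2 difference of 0.52 between ozone sons and ozone daughters, and 17 of them were called. Ozone sons stood at 0.73 and ozone daughters at 0.22 on the scale between the air means (medians). For the 50 in the middle (0.57 to 0.76) the median difference was 0.01 and 5 were called, with positions of 0.41 and 0.39. For the 50 with the highest values (0.76 to 0.97) the median difference was −0.08 and 2 were called, with ozone sons at 0.34 and ozone daughters at 0.44. The shares called higher in ozone sons were 34%, 10% and 4% in the 3 sets. They stand beside 3.15% of all genes tested and 4.07% of those at the same levels, which the last set did not exceed by this measure. The median air ratio was much the same in the 3 sets, at 2.41, 2.27 and 2.35. Most of the 24 calls thus lay among the 50 members that followed the others least closely, whose own median correlation was still 0.34. This division was made after the values were seen, and the difference between the sets was not tested.

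**Figure D4:**
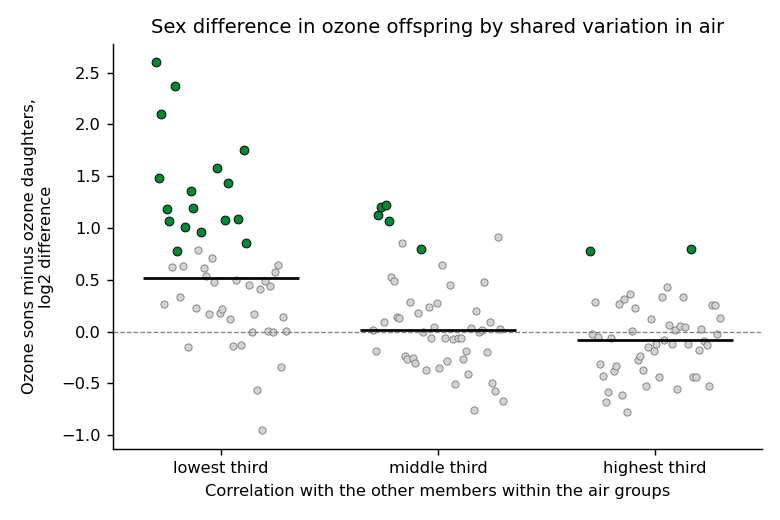
The log2 difference of ozone sons minus ozone daughters (y axis) for the 150 members in 3 sets of 50, by their correlation with the other members within the air groups (x axis, rising from left to right within each set). Green points are the 24 called members and lines the medians, which are 0.52, 0.01 and −0.08.

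The study asks what ozone breathed by the dam does to the liver of her offspring. In sons, 62 of the 150 members were lower in ozone sons than in air sons and 0 were higher (edgeR, adjusted p below 0.05, n = 5 and 6). Over all genes, 5.75% were called lower and 7.24% higher. In the direction of a rise 1 member had an unadjusted p below 0.05, and DESeq2 and limma voom called 0. With the 2 groups of sons fitted alone, 1 member was called higher and 72 lower. The median log2 difference over the members was −0.63 (quartiles −0.84 and −0.42), and it was −0.01 over all genes tested. The air sons also chose the members as genes that were high in them, so nothing is read from this count or median. The median ranged from −0.78 to −0.58 when 1 son was left out, and the count moved far more. It was 2 without ozone son 2, 19 without ozone son 1 or 3, 27 without ozone son 5, and 98 (97 lower, 1 higher) without ozone son 4. It was 35, 41 and 27 without air sons 3, 4 and 6. The share of all genes called in these settings is not given here, so the changes are not read as particular to the members. With style 1 libraries alone (4 and 3 sons) 18 members passed, and with style 2 alone (1 and 3 sons) 0 did; there, too, the medians were −0.65 and −0.66.

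The values of single members in this contrast are a description too, since the air sons chose them. ENSRNOG00000032542 had the most negative log2 difference among the called members. Air sons had 32.5 to 57.7 CPM, with a median of 43.7 CPM, and ozone sons 10.7, 4.03, 10.6, 26.2 and 23.2 CPM. All 5 ozone sons lay below all air sons, with a log2 difference of −1.74 and an SE of 0.48 (edgeR, adjusted p = 0.0246). The call was lost without any of air sons 2 and 3 and ozone sons 1, 2 and 3 (adjusted p = 0.0514, 0.0531, 0.0667, 0.098 and 0.0615), with log2 differences of −1.70, −1.68, −1.64, −1.39 and −1.64. Ozone daughters were widely spread for this gene, from 4.16 to 37.9 CPM, and air daughters had 11.3 to 26.6 CPM. ENSRNOG00000011104 came next, with 29.0 to 72.1 CPM in air sons (median 40.3 CPM) and 15.2, 16.2, 12.2, 23.7 and 15.4 CPM in ozone sons. The groups did not overlap, and the log2 difference was −1.32 with an SE of 0.30 (edgeR, adjusted p = 0.0127; 0.0639 without ozone son 2). The air daughters had 9.60 to 23.4 CPM, so the ozone sons lay in their range except for replicate 4, at 23.7 CPM. Within the style 2 libraries alone (1 ozone son) neither gene passed, with log2 differences of −3.22 and −1.58 (edgeR, adjusted p = 0.569 and 0.587). Both genes had fractional counts.

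Few members were higher in ozone than in air sons: 9 of the 150 had a log2 difference above 0. The smallest p in that direction belonged to ENSRNOG00000000969, with means of 619.3 ± 609.0 CPM in ozone and 273.1 ± 94.2 CPM in air sons (SD). Its log2 difference of 1.26 with an SE of 0.46 did not pass (edgeR, adjusted p = 0.0696). It passed without ozone son 4 (1.51, edgeR, adjusted p = 0.0165) and with the 2 groups of sons fitted alone (1.30, edgeR, adjusted p = 0.0448). Without ozone son 2 it was 0.48 (edgeR, adjusted p = 0.553). ENSRNOG00000004089 was next. Its ozone sons had 275.1, 325.1, 279.2, 200.9 and 277.2 CPM and its air sons 148.6 to 295.6 CPM, with a median of 227.9 CPM. These groups overlapped, with a log2 difference of 0.25 and an SE of 0.21 (edgeR, adjusted p = 0.430), and of 0.13 without air son 3 or without ozone son 2. The ozone daughters of this gene had 53.5 to 128.6 CPM, all below every ozone son.

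**Figure D5:**
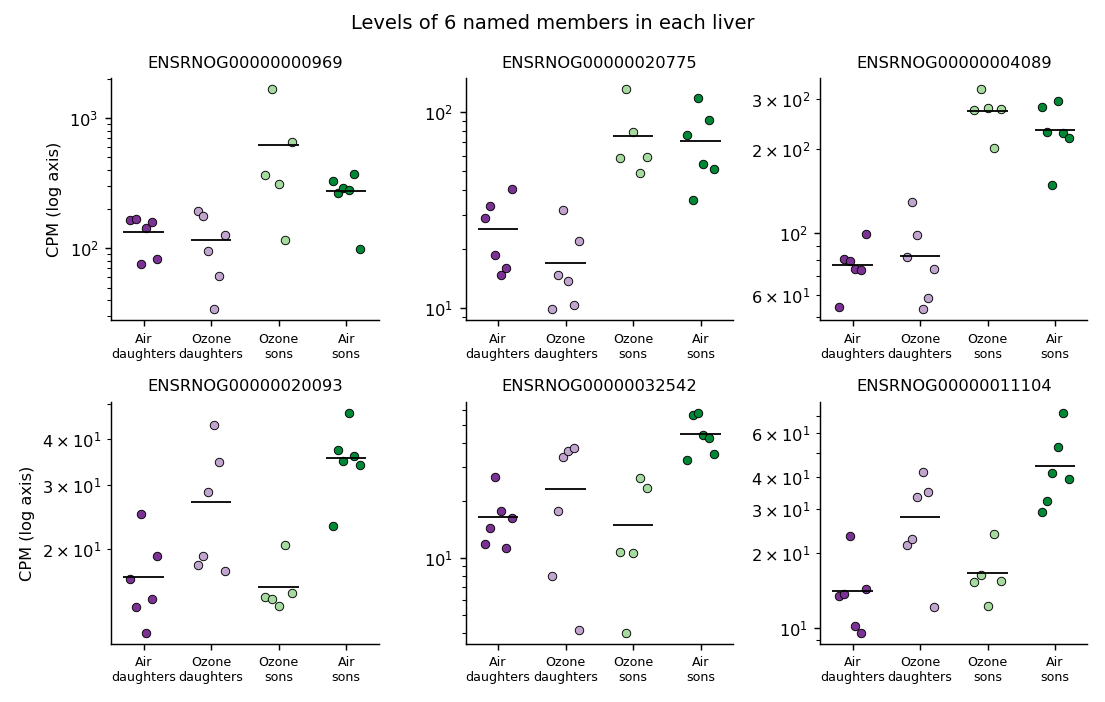
CPM (log axis) of 6 named members in each of the 23 livers, by group; points are animals and lines group means. ENSRNOG00000000969, ENSRNOG00000020775 and ENSRNOG00000004089 (upper row) were higher in ozone sons than in ozone daughters. In ENSRNOG00000020093, ENSRNOG00000032542 and ENSRNOG00000011104 (lower row) every ozone son lay below every air son. All 6 were picked by their values in these data.

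In daughters, none of the 150 members passed the threshold between ozone and air (edgeR, n = 6 and 6), as 0% of all genes did, and DESeq2 and limma voom called 0 of the members. An unadjusted p below 0.05 was seen for 57 members in the direction of a rise and for 1 in that of a fall; over the 12792 genes tested these numbers were 798 and 495. The log2 difference was above 0 in 144 members, with a median of 0.49 (quartiles 0.30 and 0.62), and the median of all genes was 0.01. The air daughters chose the members as genes low in them, so nothing is read from these values either. The median was 0.36 without ozone daughter 4, the animal with the highest position, and 0.58 without ozone daughter 6, the one with the lowest. Style 1 held 1 ozone daughter (median 0.33) and style 2 held 1 air daughter (median 0.62), so the style and the exposure are nearly confounded in daughters.

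The smallest p in daughters belonged to ENSRNOG00000017165, a member with whole counts in every library. Ozone daughters had 31.1 to 55.1 CPM, with a median of 45.2 CPM, and air daughters 24.4 to 44.9 CPM, with a median of 33.3 CPM. These ranges overlapped, with a log2 difference of 0.59 and an SE of 0.16 (edgeR, adjusted p = 0.492). In the same gene all 6 air sons, at 66.3 to 77.4 CPM, lay above every other liver, and ozone sons had 43.7, 38.2, 42.6, 57.5 and 38.4 CPM, so the 2 ozone groups overlapped (log2 difference −0.14, edgeR, adjusted p = 0.779). ENSRNOG00000024501 had 12.4 to 44.2 CPM in air and 26.3 to 53.8 CPM in ozone daughters, and did not pass (log2 difference 1.04, SE 0.30, edgeR, adjusted p = 0.492). In the direction of a fall, ENSRNOG00000020775 had a log2 difference of −0.84 with an SE of 0.37 (edgeR, adjusted p = 0.492) and ENSRNOG00000000969 of −0.52 with an SE of 0.48 (edgeR, adjusted p = 0.671; −1.27 without ozone daughter 2).

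The mirror set was also compared between ozone offspring. Of its 150 genes, 27 were higher in ozone daughters than in ozone sons and 0 were higher in ozone sons, beside 24 and 0 for the members in the direction of the sons. Over all genes tested, 2.92% were called higher in ozone daughters and 3.15% in ozone sons. The median log2 difference of sons minus daughters was −0.25 in the mirror set and 0.08 in the members. On its own scale, with 0 for air daughters and 1 for air sons, the mirror set placed ozone sons at 0.40, 0.64, 0.37, 0.79 and 0.50 and ozone daughters at 0.08, 0.12, 0.39, 0.75, 0.41 and −0.11. Ozone son 4 and ozone daughter 4 were again the animals nearest the air sons. Ozone daughters 1, 2 and 6 lay within the range of the air daughters on this scale (−0.22 to 0.23). The difference between the 2 sets was not tested.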

How the data were processed

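Liver poly(A) RNA of 23 rats was measured. The authors deposited estimated counts per Ensembl gene, unscaled; per the submitters' processing notes STAR 2.6.1d, Partek, DESeq2 and the build rn6 were used, and neither annotation nor counting settings are named in the labels. Of the values 19.8% were fractional (by more than 1e-06), as were some counts of 82 of the 150 members, and the 13 values of 1000000 or more, all of 1 gene, stood as multiples of 10000. The 55 pairs of libraries of a group differed by a chi-square of 13.2 or more per degree of freedom, so none was a copy.

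The members and lists were chosen with earlier results of these data known. CPM used column totals, and positions used log2(CPM + 0.5). Counts were rounded and fitted with edgeR 4.0.16 (R 4.3.3; filterByExpr, TMM factors of 0.941 to 1.05, 4 group means and a library-name style term, 18 residual degrees of freedom) over 12792 genes. Quasi-likelihood p-values were adjusted by Benjamini-Hochberg over all of them, with a threshold of 0.05; the SE comes from the F statistic. DESeq2 1.42.0 and limma 3.58.1 were alternatives. The script was tested on simulated data. Without symbols, the rule for named genes took for each comparison at most 2 members per direction, those called with the largest log2 difference or, with none called, the smallest p. The planned gene lists, cell type markers and promoter sequences need symbols and were not used.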

Additional observations from a re-analysis of the deposited data

Results flagged for a closer look

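In 48 groups of values (total counts, positions and the CPM of the named members), 6 held a library far from the rest; chance gives about 1 in 20. The total of ozone son 2 was 14098393 counts, with the next ozone son at 11272214. Ozone son 4 stood above the other ozone sons in ENSRNOG00000020093 (20.5 CPM, next 15.2), ENSRNOG00000039783 (37.8 CPM, next 22.4) and ENSRNOG00000017165 (57.5 CPM, next 43.7). Air daughter 3 stood above the other air daughters in ENSRNOG00000039783 (32.5 CPM, next 24.6) and ENSRNOG00000011104 (23.4 CPM, next 14.4).

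In ENSRNOG00000020093 every ozone son lay below the mean of the air sons and every ozone daughter above the mean of the air daughters. The log2 ozone minus air differences were −1.15 in sons and 0.68 in daughters. The difference between them was not tested, because it contains the contrast that chose the members.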

How the results depend on the processing

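The members called between ozone sons and ozone daughters (24) numbered 15 when the 2 groups were fitted alone, 14 of the 68 members with whole counts, 1 and 15 within library-name styles 1 and 2 (added after the data were seen; a lone animal in an arm is assumed to vary like the others), and 14 to 27 without 1 replicate; other settings gave 23 to 28. The members called between ozone and air sons (62) numbered 24 of those 68 with whole counts, 18 and 0 within styles 1 and 2, and 2 to 98 without 1 replicate; other settings gave 53 to 77. Daughters gave 0 in every setting run. Shares of all genes called in these settings are not given, so no change of a count is read as particular to the members. The causes were not tested, beyond the smaller number of animals or members that most of these settings have. The medians moved by less than the SD between animals in every setting run. In ENSRNOG00000000969 the ozone minus air difference in daughters turned to 0.50 within style 1. TMM-scaled CPM kept 140 of the 150 members, and leaving out 1 air library kept 114 to 139. No paired analysis was possible because the replicate numbers follow the order of accession and the labels tie no animal to a dam or to an animal of another group. What depth limits in these members was not measured.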
